A study of Rattus norvegicus with 6 samples.

Results

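Neurotransmitter receptor genes of rat oligodendrocyte progenitor cells (OPCs) are described here, in cells exposed to fibrinogen and in unstimulated cells. OPCs are the dividing precursors of myelin-forming cells. The genes were taken by symbol from the array's annotation and encode subunits of GABA-A, glycine, nicotinic and ionotropic glutamate receptors, and metabotropic glutamate, muscarinic, serotonin, dopamine and adrenergic receptors. Of 91 symbols that fit the rule, 90 had values (1 probe set with the highest mean for each gene), out of 13949 named genes measured. The remaining symbol, Glra3, was blank on every array. The fibrinogen group held 3 samples treated for 12 h with fibrinogen, a blood protein that forms clots, and the control group held 3 unstimulated samples. Cells of both groups came from pups at postnatal day 1 to 2 and had recovered for 2 days in a proliferation medium with PDGF and NT3. No genotype, strain or fibrinogen dose was given in the sources used here.

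Transmitter receptors fall into ion channels, built from several subunits that open when a transmitter binds, and receptors that signal through G proteins. In a channel the choice of subunits sets the affinity for the transmitter, the speed of closing and the ions that pass. OPCs are known to carry both kinds, and receive synapses from neurons that release glutamate and GABA. Per the series title, BMP signaling is activated by fibrinogen in these cells, and the comparison asks which transcripts differ after exposure.

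Values are log2 levels on Affymetrix arrays, and a difference of 1 is a doubling. The levels of different probe sets are not amounts of RNA that can be set against each other, so changes are compared between groups within a gene, and levels are set only against a background value. To gauge the signal of unexpressed genes, the 95th percentile of 956 olfactory and vomeronasal receptor genes was taken as background (5.51), and 41 of the 90 transmitter receptor genes had a mean over all arrays above it. In 3 of the 41 (Gabrb1, Gabrr1 and Htr2b) the control mean was not above it, and they passed through their fibrinogen arrays. Array medians over all genes lay between 6.85 and 6.89. Of the OPC markers measured, 7 of 7 lay above the background percentile, as did 71.3% of all genes. All 9 astrocyte and all 5 oligodendrocyte markers measured lay above it too, so the counts do not tell OPCs from other glia. Of 16 neuron markers 10 lay above it (Tubb3, Map2, Elavl4, Stmn2, Syt1, Syp, Snap25, Nefm, Rbfox3 and Nefl). Nefh and the transporter and enzyme genes that define glutamate and GABA neurons (Slc17a6, Slc17a7, Slc32a1, Gad1 and Gad2) did not. Whether neurons were present was not tested. The mean level of the neuron markers was between 6.84 and 6.98 on fibrinogen arrays and between 6.83 and 6.87 on control arrays, with fibrinogen 2 the highest. That array also stood apart over all genes, with an SD about the group mean of 0.146, against at most 0.114 on any other array. Over the receptor genes alone it did not, at 0.119, beside 0.122 on fibrinogen 1 and 0.118 on fibrinogen 3. This SD pools all 90 genes, and single genes could still stand apart there. On fibrinogen 2 Grin3a was higher than on fibrinogen 1 and 3 (6.92 against 6.46 and 6.44), and Grik5 lower (8.77 against 9.17 and 9.23).

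In fibrinogen cells 4 of the 90 receptor genes rose and 2 fell (limma, adjusted p under 0.05 over all genes). Those that rose were Gabra4, Gabrg3, Grik4 and Htr2b, and those that fell were Grik3 and Chrna4. The share called was 6.67%, against a background of 3.1% over all genes, and by direction 4.44% rose, against 1.81%, and 2.22% fell, against 1.29%. These shares depended on single arrays: without control 2 or control 3 only Gabra4 was called (1.11% of receptor genes), against 1.12% of all genes without control 2 and 1.08% without control 3. Without adjustment, 18 of the 90 had a p under 0.05 (20%, background 15.6%), 11 of them higher (12.2%, background 8.12%) and 7 lower (7.78%, background 7.46%). The median log2 change of the 90 genes was 0.01, beside 0.00 over all genes, and 49 changes were above 0 and 41 below it. All fibrinogen arrays lay above all control arrays for 13 of the 90 (14.4%, background 10.7%) and below them for 8 (8.89%, background 10.6%).

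**Figure D1:**
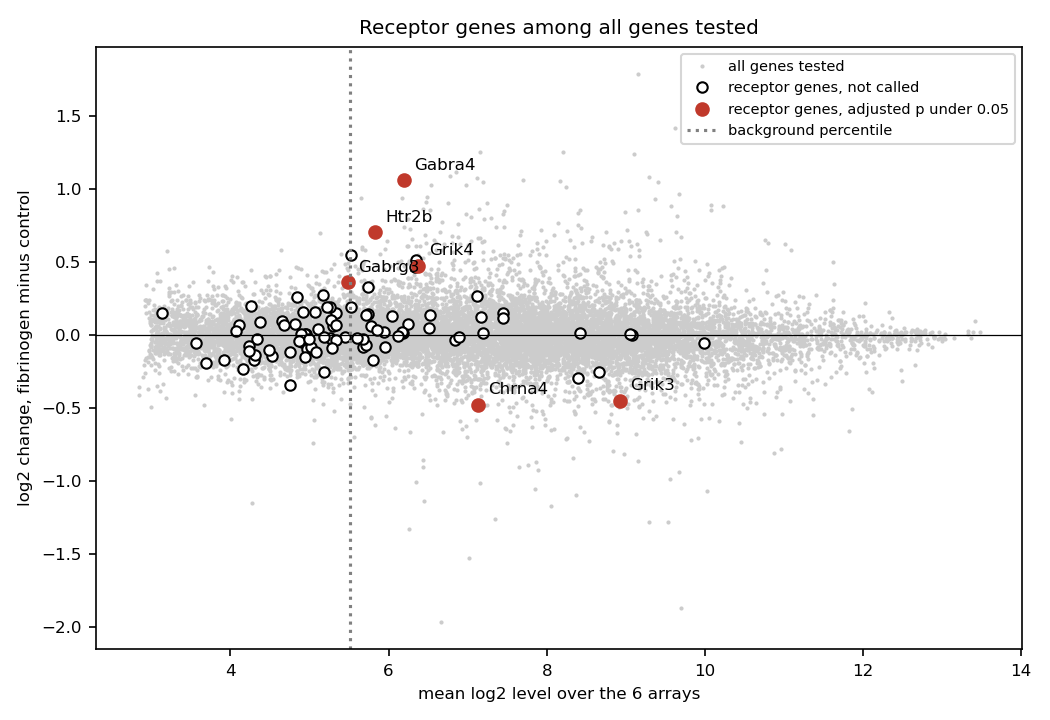
Log2 change (fibrinogen minus control) against the mean log2 level over the 6 arrays for all 13949 genes (grey) and the 90 receptor genes (circles, filled where called). The dotted line marks the background percentile of 5.51. Gabra4 stands highest of the receptor genes, at 1.06, and Grik3 and Chrna4 lie lowest, at -0.45 and -0.48.

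The largest difference was in Gabra4, which encodes the alpha-4 subunit of the GABA-A receptor, a subunit known in neurons from receptors outside the synapse. Its log2 level was 6.47, 6.83 and 6.87 on the fibrinogen arrays, against 5.89, 5.59 and 5.51 on the control arrays. Every fibrinogen array lay above every control array, and the gap between the groups exceeded the spread within either. The control mean of 5.66 was only a little above the background percentile of 5.51, and control 3 lay at it. The gene rose by 1.06 ± 0.13 (SE), or 2.08-fold from these dim controls, with an adjusted p of 0.00436 in limma. It was the only receptor gene called in each of the 6 fits that left out 1 array, with log2 changes between 0.98 and 1.19.

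Gabrb1, the beta-1 subunit gene, is the direct neighbour of Gabra4 among protein-coding genes of the RefSeq rat assembly GRCr8. Its log2 level was 5.51, 6.05 and 5.86 on the fibrinogen arrays, against 5.30, 5.15 and 5.32 on the control arrays. All control arrays lay below the background percentile. The groups did not overlap, but the fibrinogen arrays were spread widely, and the log2 change of 0.55 ± 0.13 (SE) against this dim group missed the threshold (adjusted p = 0.0630, limma). It passed without fibrinogen 1, where the adjusted p was 0.0195 in limma. With any other single array left out instead, it did not pass (adjusted p between 0.106 and 0.220, limma). Gabra2 and Gabrg1, which follow Gabra4 on the same chromosome with 1 other protein-coding gene between them and it, had log2 changes of 0.15 ± 0.09 and 0.11 ± 0.07 (SE) that did not pass. The log2 changes in this cluster ranged from 0.11 to 1.06, and the differences between them were not tested.

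Gabrg3, the gamma-3 subunit gene, had log2 levels of 5.55, 5.76 and 5.68 on the fibrinogen arrays, against 5.29, 5.30 and 5.31 on the control arrays. The controls were nearly equal and lay below the background percentile, and all fibrinogen arrays lay above it. The gene rose by 0.36 ± 0.08 (SE), with an adjusted p of 0.0417 in limma. Its mean over all arrays, 5.48, lay just below the background percentile. With the control arrays set at the percentile the difference was estimated at 1.11-fold, a value without an interval. The call ended without fibrinogen 2 or 3 or any control array (adjusted p between 0.0602 and 0.157, limma). Just above the percentile were Gabrr1, a rho subunit gene, at 5.52, and Gabrb1 at 5.53. Gabra5, the direct neighbour of Gabrg3 in GRCr8, had a log2 change of -0.12 ± 0.13 (SE) and lay in the background range.

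Of the 16 GABA-A and rho subunit genes measured, 6 lay above the background percentile. In all 2 rose, 0 fell and 14 did not pass (12.5% called, beside 3.1% of all genes). The median log2 change was 0.11, with 12 changes above 0 and 4 below it. Over all genes 6761 were above 0 and 7031 below it, and the difference was not tested. Besides the genes above, Gabra3, an alpha subunit gene with a mean level of 7.19, had a log2 change of 0.01 (95% confidence interval -0.21 to 0.23).

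**Figure D2:**
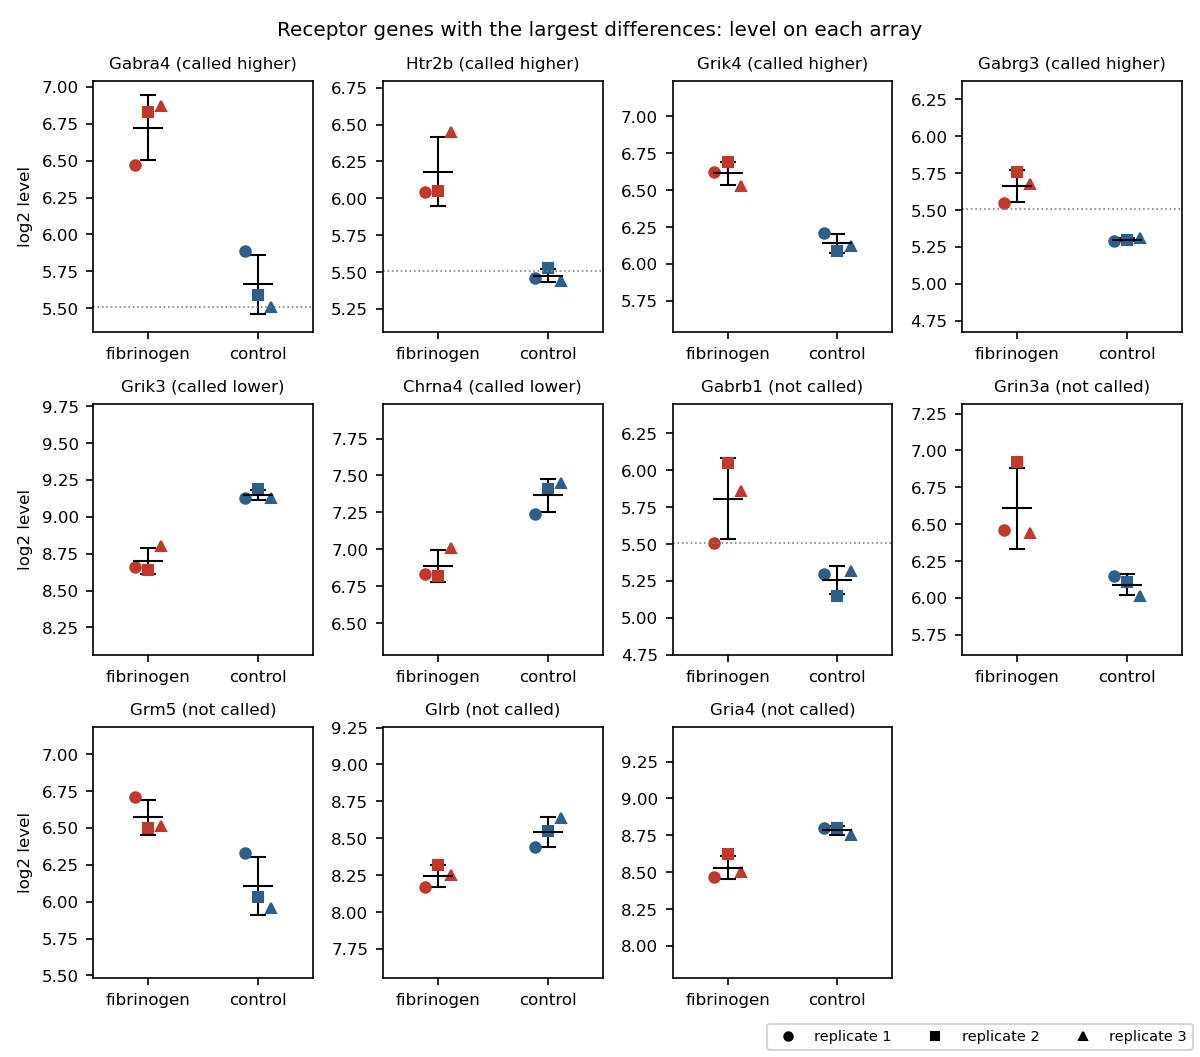
Log2 level on each array for the 6 called receptor genes and 5 not called, fibrinogen left and control right. The 5 are from the largest positive (Gabrb1, Grin3a and Grm5) and largest negative (Glrb and Gria4) changes above the background percentile. Symbols mark replicates, bars the mean ± SD (n = 3), the dotted line the background percentile, and every panel spans the same log2 range. The groups do not overlap in any panel.

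Among 5 kainate receptor genes, 1 rose and 1 fell (40% called of a small family, beside 3.1% of all genes). Grik3 encodes a subunit of the low-affinity kind, which forms channels by itself, and Grik4 one of the high-affinity kind, which needs a low-affinity partner. Grik3 had log2 levels of 8.66, 8.64 and 8.80 on the fibrinogen arrays, against 9.13, 9.19 and 9.13 on the control arrays. It fell by 0.45 ± 0.07 (SE), to 0.732 of the control level (adjusted p = 0.0151, limma). Grik4 had log2 levels of 6.62, 6.69 and 6.53 on the fibrinogen arrays, against 6.21, 6.09 and 6.12 on the control arrays. It rose by 0.47 ± 0.07 (SE), or 1.39-fold (adjusted p = 0.0130, limma). Both genes lay above the background percentile on every array, and neither had overlapping groups. The Grik4 control mean of 6.14 was still just under the 99th percentile of the background genes (6.16).

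The other kainate receptor genes did not pass. Grik2, a low-affinity subunit gene, had log2 levels of 8.55, 8.25 and 8.50 on the fibrinogen arrays, against 8.35, 8.41 and 8.50 on the control arrays. Its log2 change was 0.01, with a 95% confidence interval of -0.20 to 0.23. Grik5, the other high-affinity subunit gene, had 9.17, 8.77 and 9.23 on the fibrinogen arrays, against 9.02, 9.08 and 9.05 on the control arrays. Fibrinogen 2 lay below all controls and the other fibrinogen arrays above them, and the log2 change was 0.01 (95% confidence interval -0.26 to 0.27). Grik1 lay in the background range. The call for Grik3 ended without fibrinogen 1 or any control array (adjusted p = 0.0562 without fibrinogen 1, and 0.0604, 0.0833 and 0.0691 without control 1, 2 and 3, limma), and that for Grik4 without control 2 or 3 (adjusted p = 0.0729 and 0.0713, limma).

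The promoters of Gabra4 and Gabrb1, neighbours that lay higher on all fibrinogen arrays, and of Grik4 and Grik3, which moved in opposite directions, are shown as 300 bases each (250 before to 50 after the start, 5′ to 3′, RefSeq, GRCr8). Capitals mark GGCGCC, a motif known from BMP-responsive elements, which reads the same on both strands.
Gabra4 promoter, chr14:36944497-36944796, plus strand: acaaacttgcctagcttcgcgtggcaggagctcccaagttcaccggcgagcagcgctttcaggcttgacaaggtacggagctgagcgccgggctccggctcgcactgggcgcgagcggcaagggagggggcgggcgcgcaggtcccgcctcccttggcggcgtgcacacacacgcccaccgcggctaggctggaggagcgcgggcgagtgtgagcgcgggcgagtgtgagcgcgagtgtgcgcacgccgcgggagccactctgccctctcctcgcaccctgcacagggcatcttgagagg
Gabrb1 promoter, chr14:36902844-36903143, minus strand: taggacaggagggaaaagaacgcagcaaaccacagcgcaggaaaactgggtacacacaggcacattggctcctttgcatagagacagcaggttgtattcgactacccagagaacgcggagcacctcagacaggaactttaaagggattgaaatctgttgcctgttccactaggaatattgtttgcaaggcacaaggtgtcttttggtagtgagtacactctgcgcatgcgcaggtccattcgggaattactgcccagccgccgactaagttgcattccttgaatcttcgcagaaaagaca
Grik4 promoter, chr8:52102014-52102313, minus strand: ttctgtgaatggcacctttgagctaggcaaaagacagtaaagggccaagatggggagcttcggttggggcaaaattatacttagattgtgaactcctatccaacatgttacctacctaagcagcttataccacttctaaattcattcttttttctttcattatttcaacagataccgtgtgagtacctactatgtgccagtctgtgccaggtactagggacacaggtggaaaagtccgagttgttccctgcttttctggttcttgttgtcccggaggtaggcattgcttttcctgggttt
Grik3 promoter, chr5:143052192-143052491, plus strand: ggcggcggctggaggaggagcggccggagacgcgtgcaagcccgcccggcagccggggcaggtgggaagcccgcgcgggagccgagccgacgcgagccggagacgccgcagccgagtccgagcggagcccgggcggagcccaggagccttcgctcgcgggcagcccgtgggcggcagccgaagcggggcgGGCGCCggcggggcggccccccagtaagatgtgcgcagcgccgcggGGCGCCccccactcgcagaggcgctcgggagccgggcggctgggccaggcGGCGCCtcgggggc
The motif occurred 3 times in the window of Grik3, which fell, and not in those of Gabra4, Gabrb1 or Grik4. Among the 6 called receptor genes 2 had it in this window, Grik3 and Gabrg3, as did 11 of the 67 receptor genes with a promoter in the table (16.4%) and 11% of all 33465 promoters. The windows also differed in base composition, with 70.7% G and C for Gabra4, 49.3% for Gabrb1, 44% for Grik4 and 82.3% for Grik3, beside a median of 51.7% over all promoters. A match of letters is a description and not a bound site.

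AMPA receptor genes, which encode the channels of fast glutamate transmission, had no call among 4 measured in limma, beside 3.1% of all genes. Without adjustment, 1 was lower at a p under 0.05 (25%, which is 1 gene, beside 7.46% of all genes). Gria2 encodes the subunit that keeps calcium from passing, and its log2 level was 10.02, 9.84 and 10.02 on the fibrinogen arrays, against 9.98, 10.03 and 10.04 on the control arrays. The groups overlapped, and the log2 change of -0.06 had a 95% confidence interval of -0.23 to 0.12. Gria3 had 9.14, 9.06 and 9.02 on the fibrinogen arrays, against 9.09, 9.06 and 9.08 on the control arrays, with a log2 change of 0.00 (95% confidence interval -0.16 to 0.15). For these subunits the intervals reached no farther than 0.23 from 0. Gria4 had 8.47, 8.62 and 8.50 on the fibrinogen arrays, against 8.80, 8.80 and 8.75 on the control arrays. All its fibrinogen arrays lay below all controls, with a log2 change of -0.25 ± 0.07 (SE) that missed the threshold (adjusted p = 0.115, limma). Gria1 lay in the background range, at 4.86 ± 0.20 in fibrinogen cells and 4.78 ± 0.16 in control cells (SD, n = 3 each).

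NMDA receptor genes also had no call among 7 measured in limma, beside 3.1% of all genes. Without adjustment, 2 had a p under 0.05, both higher (28.6%, beside 8.12% of all genes). Grin3a encodes a subunit that lowers calcium entry and binds glycine. Its log2 level was 6.46, 6.92 and 6.44 on the fibrinogen arrays, against 6.15, 6.11 and 6.01 on the control arrays. The groups did not overlap, with fibrinogen 2 far above the others, and the log2 change of 0.52 ± 0.13 (SE) missed the threshold (adjusted p = 0.0738, limma). Without fibrinogen 2 the log2 change was 0.36 and passed (adjusted p = 0.0455, limma). With any other single array left out instead, it did not pass (adjusted p between 0.0789 and 0.231, limma). Grin2d, a glutamate-binding subunit gene, had a log2 change of 0.33 ± 0.12 (SE). With 1 array left out it lay between 0.20 (without fibrinogen 2) and 0.41 (without fibrinogen 1). Grin1, the subunit every NMDA receptor needs, had a log2 change of -0.17 ± 0.10, and Grin3b one of -0.02 ± 0.08. None of these passed, and Grin2a, Grin2b and Grin2c lay in the background range.

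Of 7 metabotropic glutamate receptor genes 0 were called in limma, beside 3.1% of all genes, and 2 lay above background. Without adjustment, 2 had a p under 0.05, 1 each way (28.6%, beside 15.6% of all genes). Grm5, a receptor that couples to the release of calcium from stores, had log2 levels of 6.71, 6.50 and 6.51 on the fibrinogen arrays, against 6.33, 6.03 and 5.96 on the control arrays. The groups did not overlap, and the log2 change of 0.47 ± 0.11 (SE) missed the threshold (adjusted p = 0.0629, limma). Without control 1, the control nearest the fibrinogen arrays, it passed at 0.58 (adjusted p = 0.0356, limma). With any other single array left out instead, it did not pass (adjusted p between 0.0880 and 0.222, limma). The other member above background, Grm4, had a log2 change of -0.08 ± 0.08. Grm3 lay in the background range, with 5.09, 5.02 and 5.05 on the fibrinogen arrays, against 5.35, 5.26 and 5.31 on the control arrays. Its groups did not overlap, and its log2 change of -0.25 ± 0.07 missed the threshold (adjusted p = 0.0923, limma). The delta receptor gene Grid1, the only member with more than 1 probe set, had log2 changes of 0.12 and 0.02 on its probe sets, neither past the test.

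**Figure D3:**
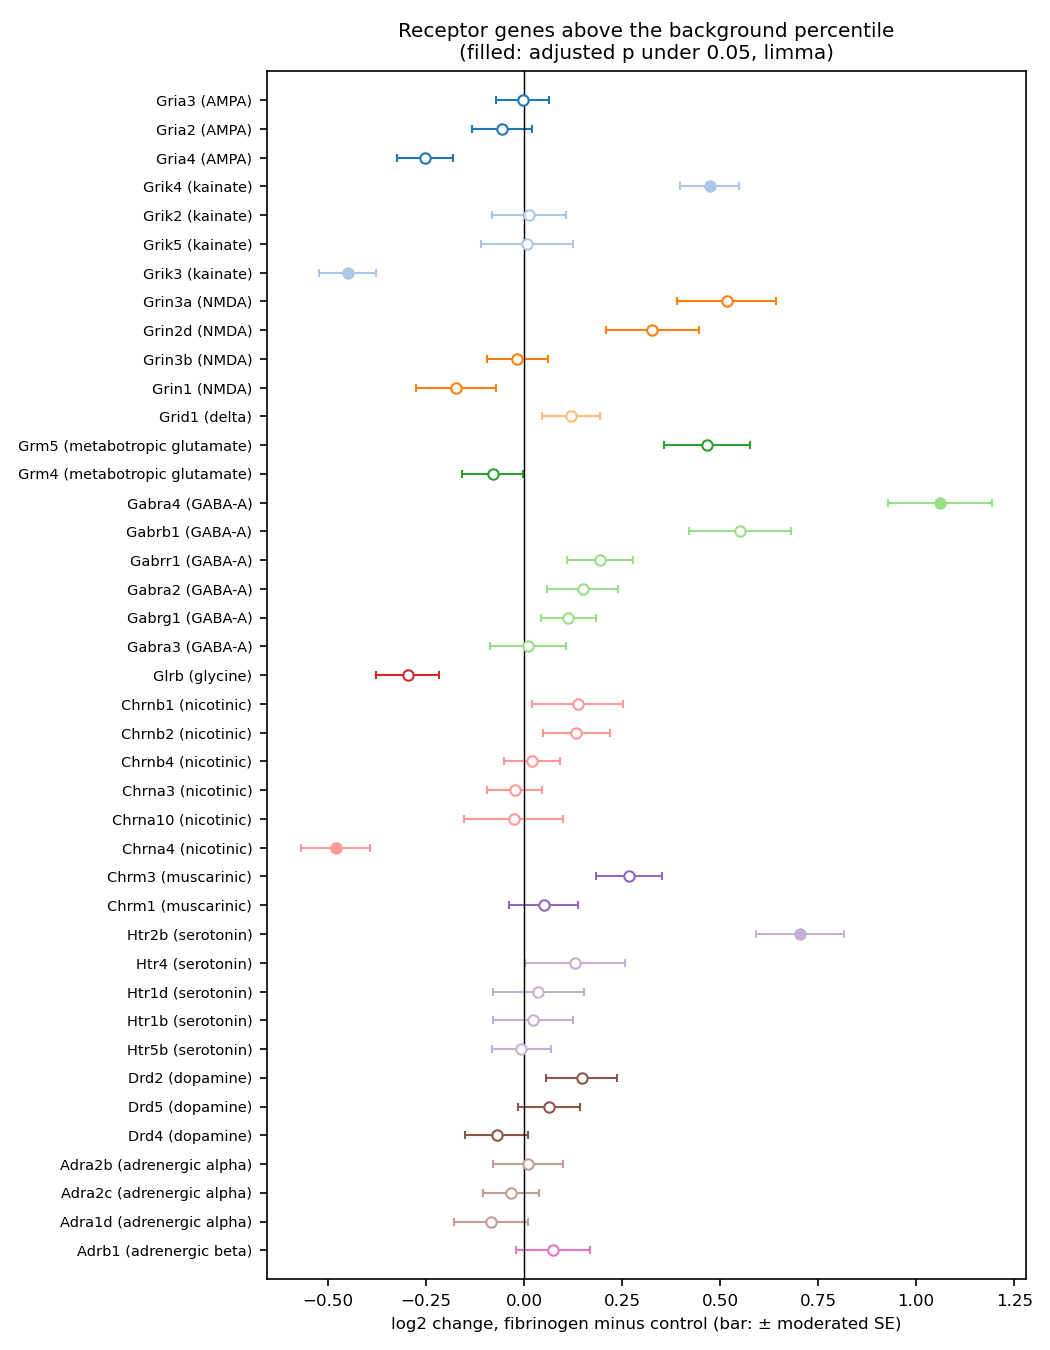
Log2 change (fibrinogen minus control) ± moderated SE of the 41 receptor genes above the background percentile, by family. Filled circles passed the test. Gabra4 lies farthest to the right at 1.06, while Gria2, Gria3, Grik2 and Grik5 lie within 0.06 of 0.

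Among 16 nicotinic receptor genes, 1 fell and 0 rose (6.25% called, which is 1 gene, beside 3.1% of all genes). Chrna4, the alpha-4 subunit of the main nicotinic receptor of brain, had log2 levels of 6.83, 6.82 and 7.01 on the fibrinogen arrays, against 7.24, 7.41 and 7.45 on the control arrays. The groups did not overlap. It fell by 0.48 ± 0.09 (SE), to 0.717 of the control level (adjusted p = 0.0244, limma). Chrnb2, the subunit that joins it in that receptor, had 6.50, 6.74 and 6.53 on the fibrinogen arrays, against 6.38, 6.50 and 6.49 on the control arrays, with a log2 change of 0.13 ± 0.09 that did not pass. The groups met at 6.50. The call for Chrna4 ended without fibrinogen 1 or 2 (adjusted p = 0.0860 and 0.0557) and without control 2 or 3 (0.114 each, limma). Chrna7, the subunit of the calcium-permeable homomeric receptor, lay in the background range, at 5.37 ± 0.02 in fibrinogen cells and 5.30 ± 0.07 in control cells (SD, n = 3 each).

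Among 14 serotonin receptor genes, 1 rose and 0 fell (7.14% called, which is 1 gene, beside 3.1% of all genes). Htr2b, a receptor that couples to phospholipase C, had log2 levels of 6.04, 6.05 and 6.45 on the fibrinogen arrays, against 5.46, 5.53 and 5.44 on the control arrays. The control mean of 5.48 was not above the background percentile, and every fibrinogen array lay above it. It rose by 0.70 ± 0.11 (SE) on the log2 scale (adjusted p = 0.0142, limma). With control arrays raised to the percentile where they lay below it, the difference was estimated at 1.59-fold. That value has no interval and depends on the percentile chosen. The fibrinogen mean of 6.18 was just above the 99th percentile of the background genes (6.16). The call ended without control 1, 2 or 3 (adjusted p = 0.0634, 0.0545 and 0.0713, limma), while the log2 change lay between 0.57 and 0.77 in the fits without 1 array. The related Htr2a and Htr2c lay in the background range, with log2 changes of 0.16 ± 0.07 and 0.09 ± 0.07.

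Of 5 muscarinic receptor genes 0 were called in limma, beside 3.1% of all genes. At an unadjusted p under 0.05, 1 was higher (20%, which is 1 gene, beside 8.12% of all genes). Chrm3, which also couples to phospholipase C, had log2 levels of 7.24, 7.29 and 7.21 on the fibrinogen arrays, against 7.12, 6.97 and 6.85 on the control arrays. Its groups did not overlap, but the log2 change of 0.27 ± 0.08 (SE) missed the threshold (adjusted p = 0.155, limma). Chrm1, known as a brake on OPC differentiation, had 6.69, 6.46 and 6.45 on the fibrinogen arrays, against 6.56, 6.48 and 6.41 on the control arrays. These groups overlapped, and the log2 change was 0.05 (95% confidence interval -0.15 to 0.25).

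None of the 3 glycine receptor genes, 5 dopamine receptor genes or 7 adrenergic receptor genes was called in limma, beside 3.1% of all genes. At an unadjusted p under 0.05 the counts were 2, 0 and 1, beside 15.6% of all genes. Glrb, the beta subunit that anchors glycine receptors to the scaffold protein gephyrin, had log2 levels of 8.17, 8.32 and 8.25 on the fibrinogen arrays, against 8.44, 8.55 and 8.64 on the control arrays. All its fibrinogen arrays lay below all controls, with a log2 change of -0.30 ± 0.08 (SE) that missed the threshold (adjusted p = 0.0984, limma). Its alpha partners Glra1 and Glra2 lay in the background range. Of the adrenergic receptor genes, Adra1a and Adra1b lay in the background range without overlap between groups, and had log2 changes of 0.27 ± 0.09 and 0.26 ± 0.12 (SE). Neither passed in limma, with an adjusted p of 0.155 for Adra1a and 0.330 for Adra1b. Adrb1 had a log2 change of 0.07 ± 0.10, Adra2c one of -0.03 ± 0.07 and Adra1d one of -0.08 ± 0.09. The dopamine receptor genes lay between -0.07 and 0.15.

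The 49 receptor genes in the background range had log2 changes between -0.35 and 0.36, and 1 of them, Gabrg3, was called. A difference in such genes was hard to detect at these levels, so a missed call there does not show an equal level. By type of receptor, 5 of 54 channel subunit genes were called (9.26%), 3 higher and 2 lower, and 1 of 36 genes of G protein-coupled receptors, higher (2.78%), beside 3.1% of all genes. The difference between the types was not tested. With 3 arrays in each group, 0.1 is the smallest p that exact permutation allows, and single genes were tested in limma alone.

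**Figure D4:**
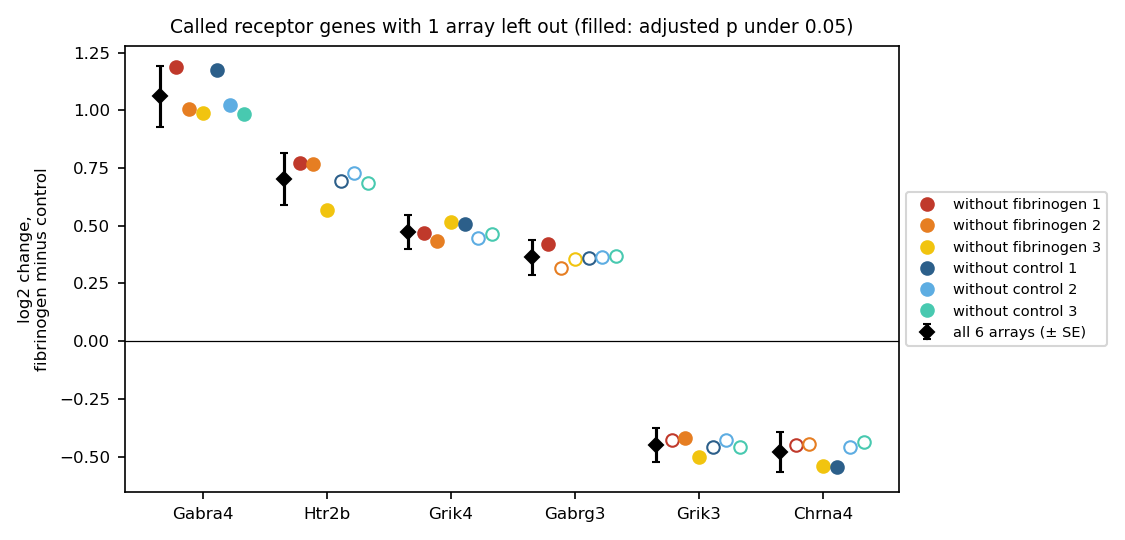
Log2 change (fibrinogen minus control) of the 6 called receptor genes with all arrays (diamonds, ± SE) and with 1 array left out (circles, filled where the adjusted p stayed under 0.05). The direction held in each fit shown, as it must where groups do not overlap. Only Gabra4 is filled throughout, and without control 2 or control 3 it is the only gene called.

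Genes that work with these receptors were examined as lists. Of 37 measured partner genes (auxiliary subunits, scaffolds, chaperones and trafficking proteins), 1 rose and 0 fell (2.7% called, near the 3.1% of all genes), with a median log2 change of 0.04. Cnih2, which helps AMPA receptors reach the surface and slows their closing, had log2 levels of 9.82, 9.83 and 9.79 on the fibrinogen arrays, against 9.50, 9.35 and 9.33 on the control arrays. It rose by 0.42 ± 0.07 (SE), with an adjusted p of 0.0202 in limma. Of 33 receptors for other transmitters (GABA-B, purines, histamine, opioids, somatostatin and cannabinoids) 0 were called, while 7 had an unadjusted p under 0.05 (21.2%, beside 15.6% of all genes), 5 higher and 2 lower. The lowest adjusted p-values there were those of Gabbr1, a GABA-B receptor subunit gene (log2 change 0.28 ± 0.07, adjusted p = 0.0792), and the histamine receptor gene Hrh1 (0.37 ± 0.11, adjusted p = 0.127, limma). Of 18 enzymes that make or break down transmitters, 1 fell and 0 rose (5.56% called, which is 1 gene). This was Gad2, which makes GABA, with 4.78, 4.85 and 4.68 on the fibrinogen arrays, against 5.30, 5.24 and 5.52 on the control arrays, all in or near the background range.

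Markers of some cell types moved in the same samples, where 1.81% of all genes rose and 1.29% fell. The mean level of 9 astrocyte markers was between 8.67 and 8.75 on fibrinogen arrays and between 8.15 and 8.20 on control arrays, and 4 of the 9 rose (44.4%). The mean of 7 OPC markers was between 10.20 and 10.37 on fibrinogen arrays and 10.60 on each control array. Of the 7, 4 fell (57.1%), with log2 changes of -0.66 (Gpr17), -0.65 (Neu4), -0.40 (Pdgfra) and -0.35 (Cspg4). Sox10, Olig1 and Ptprz1 were not called, with overlapping groups and log2 changes between -0.07 and -0.03. The mean of 5 oligodendrocyte markers was between 8.37 and 8.47 on fibrinogen arrays and between 8.47 and 8.51 on control arrays. Of these 1 fell, Cnp, an enzyme gene of myelin-forming cells, which differed by -0.48 ± 0.08 (SE) on the log2 scale (adjusted p = 0.0147, limma). Of the 16 neuron markers, whose means are given above, 1 fell (Gad2) and 0 rose, and Nefl and Nefm were higher at an unadjusted p under 0.05, with log2 changes of 0.32 ± 0.12 and 0.38 ± 0.11 (SE) that did not pass. Microglia markers gave 5.35 to 5.37 on fibrinogen arrays and 5.31 to 5.43 on control arrays, with 0 of 8 called (limma, and 0 at an unadjusted p under 0.05). Endothelial markers gave 4.83 to 4.84 on fibrinogen arrays and 4.78 to 4.79 on control arrays. Markers of pericytes and fibroblasts gave 5.67 to 5.84 on fibrinogen arrays and 5.77 to 5.82 on control arrays, and 0 were called in either list (limma, and 0 at an unadjusted p under 0.05). The part of these shifts in the receptor results was not tested. In such samples fewer cells of a type and less RNA per cell cannot be told apart.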

How the data were processed

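RNA of 3 fibrinogen and 3 control samples was amplified, labelled with biotin and measured on Affymetrix arrays, 1 array per sample. The deposited values are log2 levels per probe set. The submitters' processing notes name RMA and limma without settings, and RMA was taken as the authors' normalization. The log2 scale was inferred from the values. Such normalization can compress differences of dim genes, and scanner files were not used here, so it was not varied. Groups and replicate numbers came from sample titles, and nothing says that replicates were separate cultures, so the p-values rest on variation among these arrays alone, part or all of which may be technical.

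Of 26312 probe sets 1206 were blank. Of the rest 14700 had 1 gene symbol in the platform annotation, 275 several and 10131 none, and only the first kind was used, with the highest mean where a gene had several. All 90 receptor genes matched RefSeq (GRCr8) by Entrez ID. Each gene was fitted with limma 3.58.1 in R 4.3.3 (lmFit, eBayes, two-sided, fibrinogen minus control, no covariates), with Benjamini-Hochberg adjustment over 13949 genes and a threshold of 0.05. SEs and 95% confidence intervals are the moderated ones. Background was the 95th percentile of olfactory and vomeronasal receptor genes (symbols in Olr and Vom, and the 841 renamed to Or).

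Receptor genes and lists were chosen with earlier results of these data known. Named genes were all that passed, the 15 with the highest means, the 6 largest changes each way above background, and a list of well-known receptors. Others (Gabrr1, Gabra5, Grik1, Grin2c, Grin2d, Grm3, Grm4, Htr2c, Chrnb2, Glra1, Glra2, Adra1a and Adra1b) were named after their values were seen. Alternatives were other scaling, filters on dim genes, other probe set rules, variance models, a replicate block and leaving out each array. Precision is limited by the number of arrays. At most 3.63% of genes had equal values on any pair of arrays.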

Additional observations from a re-analysis of the deposited data

How the results depend on the processing

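The direction of each of the 6 called receptor genes held in the alternatives that fitted it, but it could hardly have changed. Where groups do not overlap, leaving out 1 array cannot reverse the direction. The filters, probe set rules, eBayes settings and block left these log2 changes unaltered. With arrays centred on their medians, with another rule for genes with several probe sets, or with the replicate number as a block, 6 receptor genes were called, as in the reported fit. With the block 5 of these were shared, Gabrg3 giving way to Grm5. Of all genes 3.17% were called with centring and 2.26% with the block. Whether the numbers pair the samples is not known. Deviations from the group means of same-numbered arrays had correlations of 0.03, 0.02 and 0.01. These cannot settle it, since the deviations of 3 arrays sum to 0 within a group. Filters at the background percentile and at the 30th percentile gave 8 and 7 calls (19.5% and 17.9% of the receptor genes kept). Of all genes kept, 5.98% and 6.1% were called, against 3.1% in the reported fit. The eBayes fit with trend and robust settings gave 8 (8.89%, beside 4.04% of all genes). The genes added were among Gabrb1, Grin3a and Grm5, and both filters left out Gabrg3. The filters used means over all arrays, so Gabrb1 and Htr2b passed the first through their fibrinogen arrays. Array weights gave 11 calls, 7 higher and 4 lower, Glrb and Gria4 among them, with 659 calls over all genes against 432. Leaving out 1 array gave between 1 and 5 calls, 1 to 5 higher and 0 to 2 lower. These were 1.11% to 5.56% of receptor genes, beside 1.08% to 3.13% of all genes. Without control 2 or control 3 only Gabra4 was called, with 156 and 151 calls over all genes (1.11% of receptor genes, against 1.12% and 1.08% of all genes). Where they were fitted, the genes named by rule lost a call 19 times over the alternatives and gained one 16 times, apart from Gabrg3 under both filters, where it was not fitted.

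The median log2 change of the receptor genes was -0.005 after median centring, 0.0233 with the filter at the background percentile and 0.0229 with array weights, and ranged from -0.00667 to 0.0258 without 1 array. The number of receptor genes above background was 52 at the 90th percentile and 24 at the 99th, and 39 to 42 without 1 array. With Olr and Vom symbols alone, an alternative chosen after seeing the data, it was 52.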
